A study of Homo sapiens with 6 samples.

Results

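Interferon-stimulated genes were followed across 6 human prostate cancer cell lines as a fixed list of 44 gene symbols, which covers the transcription factors, RNA sensors, antiviral effectors and ubiquitin-like modifiers of the interferon response. All 44 were found among the 47032 symbols of the deposited tables, and each was taken by its symbol. The lines form 3 pairs of an androgen-responsive parent and a derivative able to grow under androgen deprivation: LnCaP with LnCaP-abl, VCaP with VCaP-CR, and LAPC4 with LAPC4-CR. The labels call the parents castration sensitive and the derivatives castration resistant, and each line is represented by 1 library of total RNA made with a SOLiD kit. Of the parents, VCaP was kept in DMEM and the others in RPMI, with 10% fetal bovine serum that had not been stripped. All 3 resistant lines were kept in RPMI with 10% charcoal-stripped serum, which is depleted of steroids, and B27 supplement. Medium and castration resistance therefore cannot be told apart in any pair. No line received interferon or any other agent, so the levels below are those of unstimulated cells. Each resistant model is 1 derived line per parent, and nothing in the labels describes repeat cultures.

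Type I interferons bind a receptor made of IFNAR1 and IFNAR2, and the kinases JAK1 and TYK2 then phosphorylate STAT2. Phosphorylated STAT2 acts in a complex with IRF9, which binds a short element, the interferon-stimulated response element, in front of its target genes. Their products detect viral RNA, degrade it, block its translation or stop virus entry and budding, and USP18 dampens the receptor signal again. In epithelial tumour cells a part of this set can stay expressed without added interferon, and a related unphosphorylated complex can keep it so.

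The response element was searched for in the RefSeq promoters of the list (GRCh38.p14, 250 bases before to 50 after the gene start), which were matched for 35 of the 44 genes. Its core, the letters GAAA, any 2 bases and GAAA again, on either strand, was present in 22 of the 35 (62.9%), against 1255 of 35116 promoters of the same length (3.57%). A form with GGAA as its first block, added after the data had been seen, was present in 8 (22.9%), against 2.82% of promoters, and 27 genes (77.1%) held at least 1 of the forms, against 6.13%. The gamma-activated site, TTCNNNGAA, was present in 9 of the 35 (25.7%), against 7.66%. The forms can overlap each other. The promoters of PARP14, OAS1 and OAS3, the tested genes at least 2-fold higher in a derivative, and of ISG15, the gene with the highest level, follow, 5′ to 3′, with every response element match in capitals; all lie on the plus strand. OAS1 and OAS3 are neighbours on chromosome 12 (chr12:112906712-112907011 and chr12:112938224-112938523), PARP14 lies on chromosome 3 (chr3:122680589-122680888) and ISG15 on chromosome 1 (chr1:1013247-1013546).
OAS1: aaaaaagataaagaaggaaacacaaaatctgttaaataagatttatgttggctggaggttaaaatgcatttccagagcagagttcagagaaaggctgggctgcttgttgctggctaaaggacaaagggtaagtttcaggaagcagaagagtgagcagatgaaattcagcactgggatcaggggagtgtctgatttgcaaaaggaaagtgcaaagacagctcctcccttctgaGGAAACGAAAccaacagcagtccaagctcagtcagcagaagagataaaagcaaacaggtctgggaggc
OAS3: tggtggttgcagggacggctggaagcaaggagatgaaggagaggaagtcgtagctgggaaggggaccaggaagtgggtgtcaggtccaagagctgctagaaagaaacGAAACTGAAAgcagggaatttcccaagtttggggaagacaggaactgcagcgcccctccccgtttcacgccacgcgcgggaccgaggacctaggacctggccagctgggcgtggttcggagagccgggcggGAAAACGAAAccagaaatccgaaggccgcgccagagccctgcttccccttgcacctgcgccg
PARP14: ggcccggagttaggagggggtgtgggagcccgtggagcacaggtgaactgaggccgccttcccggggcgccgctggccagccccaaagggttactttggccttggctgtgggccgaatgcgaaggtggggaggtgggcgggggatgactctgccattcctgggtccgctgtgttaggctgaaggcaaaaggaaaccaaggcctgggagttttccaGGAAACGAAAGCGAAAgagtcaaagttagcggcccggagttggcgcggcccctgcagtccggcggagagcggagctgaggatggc
ISG15: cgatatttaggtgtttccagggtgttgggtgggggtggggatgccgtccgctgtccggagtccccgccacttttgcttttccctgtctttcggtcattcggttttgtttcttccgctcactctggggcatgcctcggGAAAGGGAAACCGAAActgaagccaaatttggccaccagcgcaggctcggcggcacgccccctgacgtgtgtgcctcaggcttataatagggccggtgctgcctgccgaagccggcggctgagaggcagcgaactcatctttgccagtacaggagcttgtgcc
Counted from the gene start, the OAS1 match began at base -18 and the OAS3 matches at -143 and -12. PARP14 held both forms in 1 overlapping run, at -35 and -29, and ISG15 held overlapping cores at -113 and -107. A match of letters is a description of the promoter and shows no binding.

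Most of the list was expressed at a low level. Levels are given as scaled FPKM, the deposited FPKM, which relates reads to the length of a gene and the size of its library, divided by a library factor, which puts genes on a common scale per length. A gene counted as expressed enough to test when its mean over the 6 libraries reached 1 scaled FPKM. Of the 44 genes, 21 passed and 23 did not. Of the 42887 symbols outside the small RNA classes 16231 passed, so a level under the filter is not particular to the list. The 21 ranged from 0.191 to 29.5 scaled FPKM over the libraries (median 2.69). The 23 ranged from 0.0363 to 3.53 (median 0.439), on 1 to 262 counts per gene and library, so a difference among these was often not detectable at this depth. The 23 include MX1 and MX2 (antiviral GTPases), RSAD2 (viperin, which makes a chain-terminating nucleotide), IFI27 and IFI44L, genes often used to read interferon activity in patients. MX1 lay between 0.285 and 0.766 and RSAD2 between 0.232 and 0.582 in the 6 lines. The MX1 locus overlaps MX2, the RSAD2 locus overlaps CMPK2, and the MX2 locus overlaps 40 protein-coding entries. The counts of these 3 genes are therefore uncertain, and their low values may not be low expression.

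**Figure D1:**
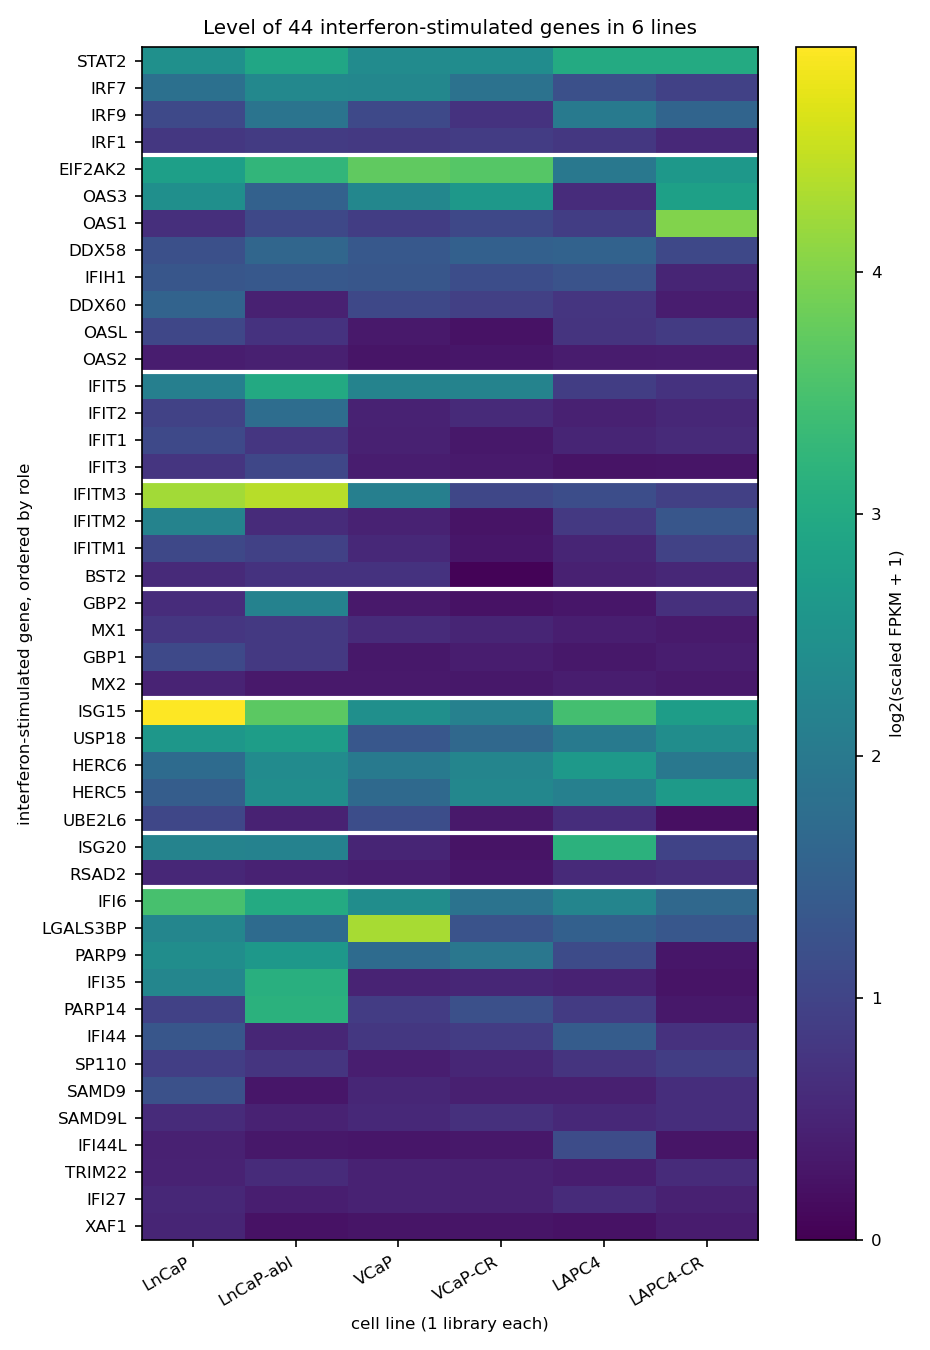
Level of the 44 interferon-stimulated genes in the 6 libraries, as log2(scaled FPKM + 1) by colour, with the 8 groups of roles divided by white lines. Most of the map is dark; 10 genes reach 5 scaled FPKM in LnCaP-abl and 2 in each VCaP library.

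The median level of the 44 genes was 1.12 scaled FPKM in LnCaP and 1.08 in LnCaP-abl. The VCaP pair had 0.692 and 0.556, parent first, and the LAPC4 pair 0.717 and 0.592. The LnCaP pair thus held the highest medians, as it did for all protein-coding genes, whose median was 1.44 in LnCaP, 1.55 in LnCaP-abl and 1.31 to 1.38 elsewhere. Among the parents, 17 of the 44 genes lay under 1 scaled FPKM in LnCaP (38.6%), 26 in VCaP (59.1%) and 27 in LAPC4 (61.4%). Among the derivatives these were 21 in LnCaP-abl (47.7%), 27 in VCaP-CR (61.4%) and 31 in LAPC4-CR (70.5%). The share of all protein-coding genes under 1 stayed between 45.7% and 47.3%. The highest level belonged to a different gene in most lines: ISG15 in LnCaP and LAPC4, IFITM3 in LnCaP-abl, LGALS3BP in VCaP, EIF2AK2 in VCaP-CR and OAS1 in LAPC4-CR.

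Libraries held 8661337 to 22433655 counts, and the derivative was sequenced more deeply than its parent in each pair. The luminal prostate markers KLK3, KLK2, HOXB13, KRT8, KRT18 and EPCAM all passed the level filter, with KLK3 between 0.649 scaled FPKM in LnCaP-abl and 610 in LnCaP. Interferon-stimulated genes are high in leukocytes, so 7 leukocyte markers were read in the same libraries: each stayed between 0 and 1.99 scaled FPKM (median 0.260), none passed, and their sum was 1.74 to 3.55 per library. Of 6 fibroblast and endothelial markers found, LUM alone passed, with 3.94 in VCaP and 50.2 in VCaP-CR. In such bulk RNA, fewer cells expressing a gene and less RNA per cell cannot be told apart.

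Over the 3 pairs no gene of the list passed the test of castration resistance. By edgeR's quasi-likelihood test with the line as a block and Benjamini-Hochberg adjustment over all 16231 genes, 0 of the 21 tested members were higher and 0 lower in the resistant lines (0.0% of all genes in each direction), with adjusted p from 0.593 to 0.992. DESeq2 and limma also called 0 members. An unadjusted edgeR p under 0.05 was reached by 728 genes in the higher direction (4.49%) and 548 in the lower one (3.38%), among them 1 member in each. HERC5, the ligase that attaches ISG15 to proteins, was higher by 0.94 on the log2 scale (SE 0.29, edgeR adjusted p = 0.593), in 3 of 3 pairs. ISG15 was lower by a log2 difference of -0.83 (SE 0.35, edgeR adjusted p = 0.627), also in 3 of 3 pairs. The smallest adjusted p of any gene was 0.314, so no gene of the whole table passed either. The edgeR log2 differences are of counts relative to library size and not on the FPKM scale.

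Within pairs there was no replicate, and no difference between 2 libraries was tested. A change here is the difference of log2(scaled FPKM + 1), derivative minus parent, which understates the change of low genes, and a change of at least 2-fold on that scale was counted. Whether the exact 95% Poisson intervals of the counts, scaled to the library, stayed apart was recorded as well; this covers counting error only. The median change of all 44 genes was 0.04 in the LnCaP pair, -0.02 in VCaP and -0.03 in LAPC4. Over all genes with any count, also without the filter, the medians were -0.07, 0.0 and -0.04, and over all tested genes -0.01, -0.01 and -0.02. Of the 44, 23 were higher and 21 lower in LnCaP-abl, 19 higher and 25 lower in VCaP-CR, and 21 higher and 23 lower in LAPC4-CR. Of all tested genes, 7966 were higher and 8254 lower in LnCaP-abl, 7876 and 8337 in VCaP-CR, and 7834 and 8388 in LAPC4-CR. Among the 21 that passed the filter the medians were 0.41, 0.01 and -0.23; the filter kept PARP14, OAS1 and IFITM2 through 1 library each, LnCaP-abl, LAPC4-CR and LnCaP. The VCaP median and mean (-0.19) of these 21 differed in sign.

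**Figure D2:**
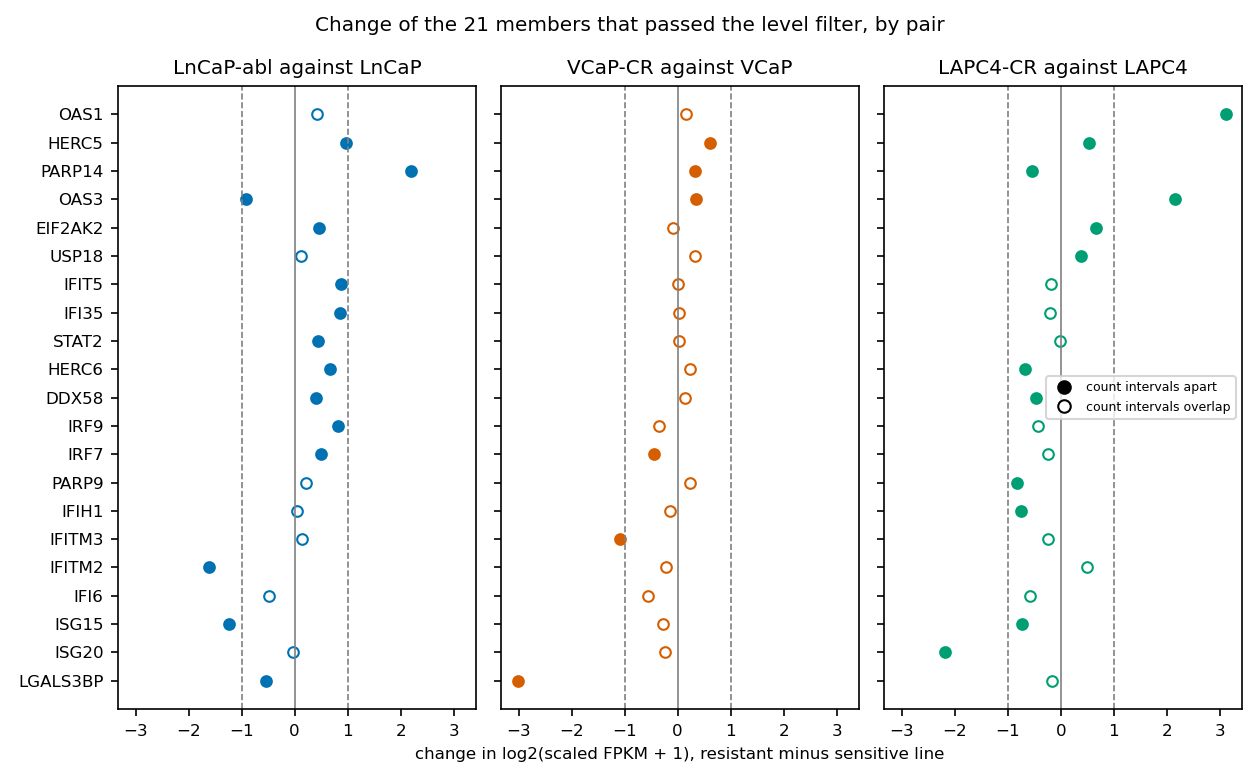
Change of each of the 21 interferon-stimulated genes that passed the level filter, as log2(scaled FPKM + 1) of the derivative minus its parent, 1 panel for each parent and 1 point per gene, filled where the count intervals stayed apart. Dashed lines mark 2-fold; PARP14 lies beyond it in LnCaP-abl (2.19), LGALS3BP in VCaP-CR (-3.02), and OAS1 (3.11), OAS3 (2.17) and ISG20 (-2.19) in LAPC4-CR.

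In LnCaP-abl, 1 of the 21 members was at least 2-fold higher (6.23% of all genes) and 2 were at least 2-fold lower (6.19%). PARP14, a mono-ADP-ribosyltransferase of the macroPARP family, was the higher one, and it passed the level filter through LnCaP-abl alone. Its gene (ENSG00000173193) lies at chromosome 3, 123882155 to 123932377 in the hg18 coordinates of the tables. PARP14 stood at 0.946 scaled FPKM in LnCaP, 0.828 in VCaP and 0.819 in LAPC4 among the parents, and at 7.88 in LnCaP-abl, 1.30 in VCaP-CR and 0.245 in LAPC4-CR among the derivatives. LnCaP-abl was thus the single line with a high level, and LAPC4-CR the lowest. The 92 counts of LnCaP (interval 74.2 to 112.8) compare with 978 in LnCaP-abl (917.7 to 1041), an 8.32-fold difference in scaled FPKM and a change of 2.19. PARP9, a catalytically limited relative that works with the ligase DTX3L, changed by 0.22 in the same pair, and its locus overlaps DTX3L in the tables.

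ISG15, the ubiquitin-like modifier itself (ENSG00000187608, chromosome 1, 938666 to 939783), was the gene with the highest level of the list. It stood at 29.5 scaled FPKM in LnCaP, 4.46 in VCaP and 10.0 in LAPC4 among the parents, and at 11.9 in LnCaP-abl, 3.51 in VCaP-CR and 5.65 in LAPC4-CR among the derivatives. Each derivative was below its own parent, but the groups overlap, since LnCaP-abl lay above VCaP and LAPC4. The change was -1.24 in LnCaP-abl, on 194 and 100 counts, and -0.28 and -0.73 in the others. IFITM2, of a family that blocks virus entry at membranes, was the other gene lower in LnCaP-abl, with 3.64 in LnCaP and 0.518 in LnCaP-abl (change -1.61). It rests on 44 and 8 counts, and its locus overlaps that of IFITM1 in the tables, so its counts are uncertain. IFITM2 passed the level filter through LnCaP alone.

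By count intervals, 10 of the 21 members were apart and higher in LnCaP-abl (26.3% of all genes) and 4 were apart and lower (21.6%). The 10 span several roles: STAT2, IRF7 and IRF9 among the transcription factors, DDX58 (RIG-I, a sensor of viral RNA ends) and EIF2AK2 (PKR, a kinase that halts translation), IFIT5, HERC5 and HERC6, IFI35 and PARP14. IRF9 went from 1.12 to 2.71 scaled FPKM and STAT2 from 4.54 to 6.56. The 4 lower ones were OAS3, IFITM2, ISG15 and LGALS3BP. Below the level filter, GBP2, a guanylate-binding GTPase, was 0.551 in LnCaP and 3.53 in LnCaP-abl (change 1.55, 6.41-fold, 32 and 262 counts). DDX60, a helicase that aids RNA sensing, was 1.98 and 0.376 (change -1.12).

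In VCaP-CR, 0 of the 21 members were at least 2-fold higher (2.37% of all genes) and 2 were at least 2-fold lower (2.03%). LGALS3BP, a secreted glycoprotein that binds galectins (ENSG00000108679, chromosome 17, 74478933 to 74487656), had the larger change. It stood at 18.6 scaled FPKM in VCaP, at 3.83 in LnCaP and 1.85 in LAPC4, and at 2.32 in LnCaP-abl, 1.41 in VCaP-CR and 1.53 in LAPC4-CR. VCaP was the single line with a high level, and VCaP-CR was the lowest of the 6. VCaP had 410 counts (371.3 to 451.7) and VCaP-CR 51 (38.0 to 67.1), a 13.2-fold lower scaled level and a change of -3.02. IFITM3, the family member that blocks fusion of many viruses, went from 3.37 to 1.06 on 35 and 18 counts (change -1.09). LUM, the stromal marker named above, was also higher in VCaP-CR, and its part in these differences was not tested. By count intervals 3 members were apart and higher (18.2% of all genes), OAS3, HERC5 and PARP14, and 3 apart and lower (17.4%), IRF7, IFITM3 and LGALS3BP.

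In LAPC4-CR, 2 of the 21 members were at least 2-fold higher (5.22% of all genes) and 1 was at least 2-fold lower (5.28%). Both higher genes encode oligoadenylate synthetases, which sense double-stranded RNA and make the messenger that activates the ribonuclease RNase L. OAS1 (ENSG00000089127, chromosome 12, 111828965 to 111854374) stood at 0.580 scaled FPKM in LnCaP, 0.862 in VCaP and 0.852 in LAPC4 among the parents, and at 1.10 in LnCaP-abl, 1.08 in VCaP-CR and 15.0 in LAPC4-CR among the derivatives. The other 5 lines lay within a narrow range, and LAPC4-CR stood far above all of them. OAS1 passed the level filter through LAPC4-CR alone. LAPC4 had 43 OAS1 counts (31.1 to 57.9) and LAPC4-CR 1463 (1389 to 1540), a 17.7-fold difference in scaled level and a change of 3.11. Another entry of the tables overlaps the OAS loci, but it held 0 to 4 counts per library.

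OAS3 (ENSG00000111331, chromosome 12, 111860540 to 111895437) did not follow OAS1 in the other lines. It stood at 4.45 scaled FPKM in LnCaP, 3.84 in VCaP and 0.544 in LAPC4 among the parents, and at 1.90 in LnCaP-abl, 5.17 in VCaP-CR and 5.93 in LAPC4-CR among the derivatives. LAPC4 was the lowest line, and LAPC4-CR lay near VCaP-CR and LnCaP. The counts were 58 (44 to 75) in LAPC4 and 1217 (1150 to 1287) in LAPC4-CR, a 10.9-fold difference and a change of 2.17. LAPC4-CR held the highest level of both genes, but for OAS3 other lineages lay close to it.

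ISG20, an exonuclease that degrades single-stranded RNA (ENSG00000172183, chromosome 15, 86982978 to 87000718), was the lower gene. It stood at 3.64 scaled FPKM in LnCaP, 0.430 in VCaP and 8.01 in LAPC4 among the parents, and at 3.56 in LnCaP-abl, 0.204 in VCaP-CR and 0.978 in LAPC4-CR among the derivatives. LAPC4 was the highest line and both VCaP lines the lowest. LAPC4 had 221 counts (192.8 to 252.1) and LAPC4-CR 52 (38.8 to 68.2), a change of -2.19. By count intervals 5 members were apart and higher in LAPC4-CR (27.0% of all genes), EIF2AK2, OAS1, OAS3, USP18 and HERC5. The 7 apart and lower (26.6%) were DDX58, IFIH1 (MDA5, a sensor of long double-stranded RNA), ISG15, HERC6, ISG20, PARP9 and PARP14. Both cytosolic sensors were among the latter, with IFIH1 at 1.39 in LAPC4 and 0.417 in LAPC4-CR.

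Some members took opposite directions in different lineages, at about the share of all genes. Count intervals were apart in opposite directions in different pairs for 5 of the 21 members, IRF7, DDX58, OAS3, HERC6 and PARP14, and for 21.4% of all genes. Of the 21 members, 3 were higher in all 3 pairs, OAS1, USP18 and HERC5 (15.1% of all genes), and 4 were lower in all 3, ISG15, ISG20, IFI6 and LGALS3BP (16.7%). The first 3 were not alike in size: OAS1 changed by 0.41 with LnCaP as the parent, by 0.16 with VCaP and by 3.11 with LAPC4. All 3 derivatives lay above all 3 parents for OAS1 and HERC5, 2 of the 21 members (3.44% of all genes). OAS1 is among the 21 only through LAPC4-CR, a derivative where it was high, and its count intervals were apart in that pair alone. Of the 21, 0 lay wholly below (3.22%). Among the 23 genes under the level filter 2 lay wholly below, UBE2L6 and IFI27, while these shares are of tested genes. In the order LnCaP, VCaP and LAPC4, HERC5 changed by 0.97, 0.61 and 0.53, and USP18, the protease that removes ISG15, by 0.13, 0.33 and 0.38. IFI6, a mitochondrial and endoplasmic reticulum protein that limits apoptosis, changed by -0.48, -0.55 and -0.58.

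The enzymes of the ISG15 system did not share 1 direction. ISG15 was lower in all 3 derivatives, and so was UBE2L6, its conjugating enzyme, which did not pass the level filter. UBE2L6 stood at 1.08 and 0.385 scaled FPKM in the LnCaP pair, 1.26 and 0.255 in the VCaP pair, and 0.564 and 0.146 in the LAPC4 pair, on 8 to 27 counts. HERC5, the ligase, was higher in all 3. It stood at 1.72 in LnCaP, 2.21 in VCaP and 3.45 in LAPC4 among the parents, and at 4.35 in LnCaP-abl, 3.88 in VCaP-CR and 5.42 in LAPC4-CR among the derivatives. The lowest HERC5 level of a derivative, in VCaP-CR, lay above the highest of a parent, in LAPC4. HERC6, its close relative, changed by 0.66, 0.23 and -0.67.

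Differences between lineages were tested next, with the 2 libraries of a lineage against the mean of the other 4 in the edgeR model with line and state. A lineage holds a parent and its own derivative, which are not repeat cultures of 1 line, so the p-values measure the spread left among such pairs. In the LnCaP lineage 2 of the 21 tested members were higher (1.62% of all genes) and 0 lower (1.15%). IFI35, 1 of these 2, passed the level filter only through the LnCaP lineage, so the filter favoured its count as higher there. In the VCaP lineage 1 was higher (7.04%) and 2 lower (5.27%), and in the LAPC4 lineage 0 were higher (4.84%) and 2 lower (3.15%). These shares rest on few genes.

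**Figure D3:**
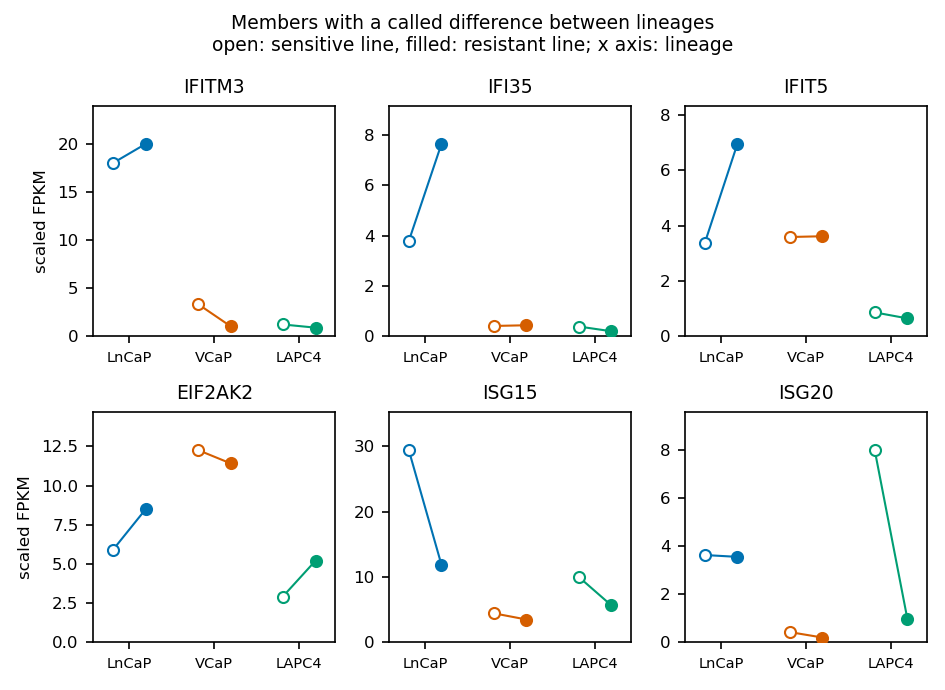
Scaled FPKM (linear axis from 0, its range set for each gene) of the 6 interferon-stimulated genes called between lineages by edgeR, with 1 point per library, open for the parent and filled for its derivative. IFITM3 lies at 18.0 and 20.0 in the LnCaP lineage and at 0.909 to 3.37 in the other 4 libraries, and IFI35 at 3.78 and 7.63 against 0.204 to 0.442.

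IFITM3 (ENSG00000142089, chromosome 11, 309669 to 311340) was higher in the LnCaP lineage. It stood at 18.0 scaled FPKM in LnCaP, 3.37 in VCaP and 1.24 in LAPC4 among the parents, and at 20.0 in LnCaP-abl, 1.06 in VCaP-CR and 0.909 in LAPC4-CR among the derivatives. Both LnCaP libraries lay above all 4 others. The edgeR log2 difference was 3.71 (SE 0.44, adjusted p = 0.0138), and it stayed under the 5% threshold in 12 of 12 alternatives (highest adjusted p = 0.0484). The same gene was lower in the LAPC4 lineage (-2.54, SE 0.51, edgeR adjusted p = 0.0356). The mean it was set against includes the high LnCaP libraries. The LAPC4 libraries were not apart from the VCaP ones, since VCaP-CR (1.06) lay below LAPC4 (1.24). That call was lost in 3 of 12 alternatives, without VCaP (0.0656), without LAPC4 (0.113) or without LAPC4-CR (0.101), all edgeR adjusted p. IFITM1 and IFITM2, its neighbours, were at 0.191 to 3.64 scaled FPKM in all lines.

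IFI35, a leucine-zipper protein that pairs with NMI (ENSG00000068079, chromosome 17, 38412268 to 38419999), stood at 3.78 in LnCaP, 0.414 in VCaP and 0.393 in LAPC4 among the parents, and at 7.63 in LnCaP-abl, 0.442 in VCaP-CR and 0.204 in LAPC4-CR among the derivatives. The LnCaP libraries again lay above all others, which had 8 to 14 counts each. The edgeR log2 difference was 3.96 (SE 0.47, adjusted p = 0.0138), and the call was lost without LnCaP-abl (adjusted p = 0.0534), 1 of 11 alternatives. IFI35 reached the level filter through the LnCaP lineage alone, since the other 4 libraries averaged 0.363 scaled FPKM. IFIT5, which binds RNA bearing a triphosphate end (ENSG00000152778, chromosome 10, 91164323 to 91170738), was lower in the LAPC4 lineage. It stood at 3.36 in LnCaP, 3.59 in VCaP and 0.868 in LAPC4 among the parents, and at 6.95 in LnCaP-abl, 3.62 in VCaP-CR and 0.651 in LAPC4-CR among the derivatives. Both LAPC4 libraries lay below all 4 others, with an edgeR log2 difference of -2.47 (SE 0.44, adjusted p = 0.0266); the call was lost without LAPC4-CR (adjusted p = 0.104).

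The VCaP lineage differed in 3 genes, whose calls held in 6 or 7 of 11 or 12 alternatives. EIF2AK2 (ENSG00000055332, chromosome 2, 37179857 to 37237712) stood at 12.3 scaled FPKM in VCaP, 11.4 in VCaP-CR, 5.89 in LnCaP, 8.48 in LnCaP-abl, 2.93 in LAPC4 and 5.21 in LAPC4-CR, so both VCaP libraries were the highest. Its edgeR log2 difference was 1.19 (SE 0.28, adjusted p = 0.0414), and over 12 alternatives the adjusted p ran from 0.0079 to 0.419. That call was lost without VCaP (0.419), VCaP-CR (0.142) or LAPC4 (0.0733). ISG15 was lower (-1.57, SE 0.39, edgeR adjusted p = 0.0493, over alternatives 0.0054 to 0.383), and lost its call without VCaP (0.383), VCaP-CR (0.230), LAPC4 (0.0627) or LAPC4-CR (0.0721). ISG20 was lower (-3.59, SE 0.78, edgeR adjusted p = 0.0332), on 9 and 7 counts in the VCaP libraries, and lost its call without VCaP (0.143) or VCaP-CR (0.127). With all libraries present, EIF2AK2 lost its call with limma (adjusted p = 0.0526) and in edgeR without the state term (adjusted p = 0.0633). ISG15 lost its call in edgeR over protein-coding genes (adjusted p = 0.0711) and without the state term (adjusted p = 0.0774). ISG20 lost its call with limma (adjusted p = 0.0626) and in edgeR over protein-coding genes (adjusted p = 0.0510). These 3 calls thus rest on the model and gene set as well as on both VCaP libraries.

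Several members sit next to each other, and neighbours did not always change together. Within 100 kb of one another lie 20 of the 44 genes, in 8 clusters. In the cluster of OAS1, OAS3 and OAS2 the first 2 were higher in LAPC4-CR, while OAS2 stood at 0.297 scaled FPKM in LAPC4 and 0.308 in LAPC4-CR. In the GBP cluster GBP2 was higher in LnCaP-abl, while GBP1 went from 1.12 to 0.762. GBP3, which lies beside both but is not on the list, was also higher in LnCaP-abl, as given below. In the IFIT cluster IFIT5 and IFIT2 were apart by count interval and higher in LnCaP-abl (IFIT2 from 0.959 to 2.40), while IFIT1 went from 1.12 to 0.714. The count intervals of GBP1 and of IFIT1 were not apart in the LnCaP pair. The 4 IFIT loci overlap LIPA in the tables, EIF2AK2 overlaps CCDC75, and GBP2 overlaps GBP7. In all, 14 of the 44 loci overlap another protein-coding entry. Their counts are uncertain, because the strand setting of the counting is not given in the sources used here.

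**Figure D4:**
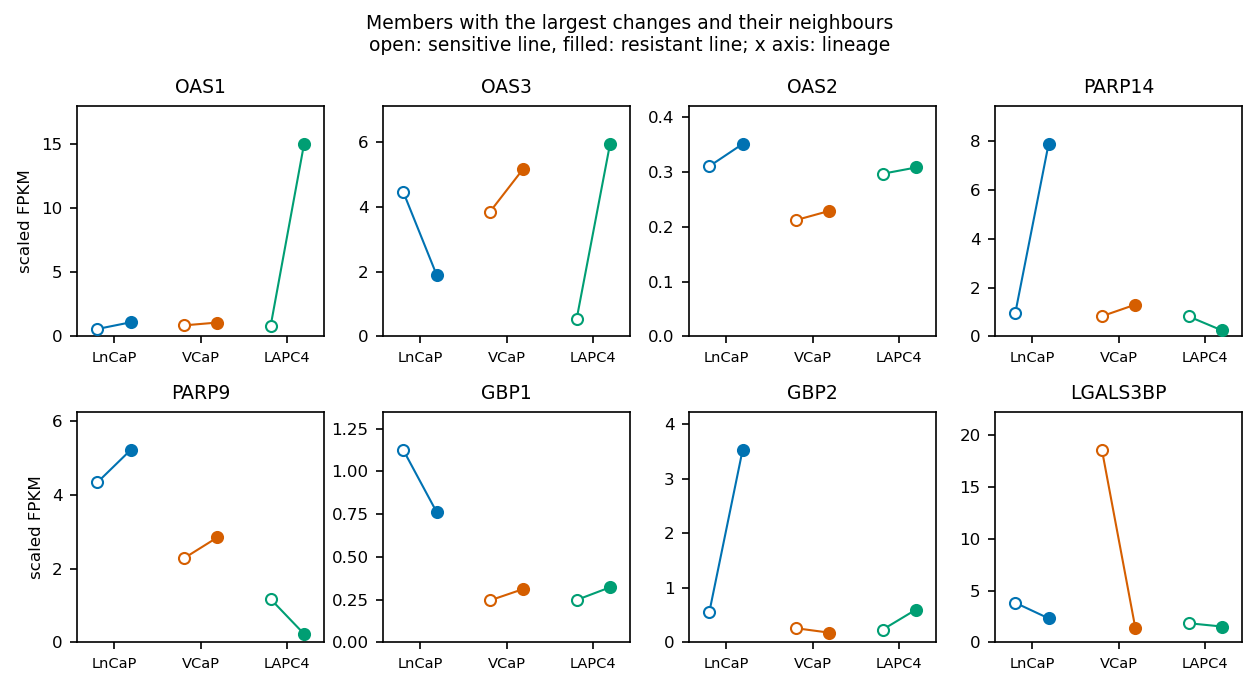
Scaled FPKM (linear axis from 0, its range set for each gene) of genes with a large change within a pair and of their neighbours or relatives, with 1 point per library, open for the parent and filled for its derivative. OAS1 goes from 0.852 to 15.0 and OAS3 from 0.544 to 5.93 in the LAPC4 pair, while OAS2 stays between 0.212 and 0.351 in the 6 libraries.

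Changes were also set beside the promoter matches. Of the 21 genes that passed the filter, 18 had a promoter sequence, 14 with a response element form and 4 without. The median change of the 14 was 0.28 in the LnCaP pair, -0.04 in VCaP and -0.22 in LAPC4. That of the 4 was 0.55, 0.13 and -0.54, and with 4 genes no difference is read from it. OAS1, PARP14, OAS3 and ISG15, whose matches are printed above, changed in different lines and directions.

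The type I receptor chains were expressed in every line, while the interferon genes had few or no counts. A list of 62 further genes of the pathway was read, and 33 of them passed the level filter. The 9 interferon genes listed had at most 11 counts in any library (0 to 0.807 scaled FPKM), and none passed. IFNAR1 stood between 9.17 and 18.6 and IFNAR2 between 1.58 and 3.55 in the 6 lines. By edgeR over the 3 pairs 0 of the 33 were called in either direction, as for the members.

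JAK1, the kinase bound to IFNAR2, differed by lineage. It stood at 0.650 scaled FPKM in LnCaP, 5.47 in VCaP and 0.883 in LAPC4 among the parents, and at 0.964 in LnCaP-abl, 5.75 in VCaP-CR and 0.764 in LAPC4-CR among the derivatives. Both VCaP libraries were several times above all 4 others, with an edgeR log2 difference of 2.79 (SE 0.30, adjusted p = 0.0046). JAK1, too, reached the filter through that lineage alone (0.815 on average in the others). TYK2, the kinase bound to IFNAR1, ranged from 0.972 to 3.70. Across the 33, the LnCaP lineage had 1 gene higher (1.62% of all genes) and 2 lower (1.15%) by edgeR at 5%. VCaP had 2 higher (7.04%) and 6 lower (5.27%), and LAPC4 had 3 higher (4.84%) and 4 lower (3.15%).

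**Figure D5:**
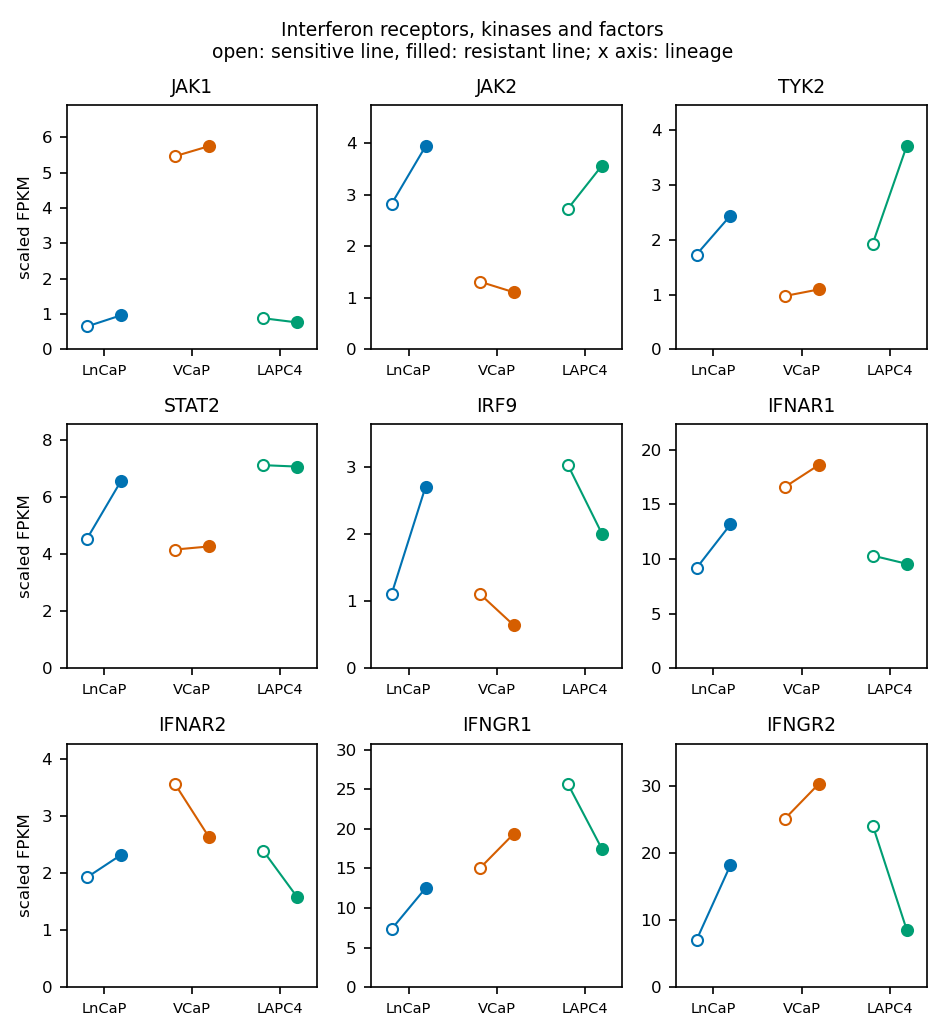
Scaled FPKM (linear axis from 0, its range set for each gene) of the interferon receptors, kinases and transcription factors, with 1 point per library, open for the parent and filled for its derivative. JAK1 lies at 5.47 and 5.75 in the VCaP lineage and between 0.650 and 0.964 elsewhere.

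Within pairs, 5 of the 33 were at least 2-fold higher and 0 lower in LnCaP-abl, 0 and 0 in VCaP-CR, and 0 higher and 3 lower in LAPC4-CR. The shares of all genes, higher and lower, were 6.23% and 6.19%, 2.37% and 2.03%, and 5.22% and 5.28%. The 5 were IFNGR2, ADAR, IKBKE, GBP3 and APOL6. GBP3, which lies beside GBP1 and GBP2, stood at 0.352 in LnCaP and 13.3 in LnCaP-abl, on 11 and 531 counts, a 37.8-fold difference. It stood at 0.129 to 1.18 in the other 4 lines, so it reached the level filter through LnCaP-abl alone. ADAR, the editor that marks double-stranded RNA as self, stood at 36.4 in LnCaP and 77.2 in LnCaP-abl. The 3 lower in LAPC4-CR were IFNGR2, LY6E and TNFSF10 (TRAIL, a death ligand). IFNGR2, a chain of the interferon gamma receptor, was higher in LnCaP-abl (7.06 to 18.2) and lower in LAPC4-CR (24.1 to 8.62).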

How the data were processed

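RNA from 6 prostate cancer cell lines, 1 library each, was read from 6 deposited tables of 51698 entries. Per the file headers, the authors deposited counts per gene and FPKM, which relates them to gene length and the size of the library. FPKM was rebuilt from counts, gene lengths and totals within 1%. The submitters' processing notes name HTSeq and hg18. Not given in the sources used here are the aligner, the annotation, and the HTSeq version and strand setting. Start coordinates have 1 added, since the tables count from 0.

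The members, gene lists and named-gene rule were chosen with earlier results of these data known. The rule printed all 6 values for members changed at least 2-fold in a pair where 1 library reached 5 scaled FPKM, and for those with the widest range between lineage means; values of other genes were added after they had been seen. Entries of small RNA classes (8763) were left out, rows sharing a symbol were summed (42887 symbols), and FPKM was divided by a median-ratio factor over 11600 genes (0.847 to 1.11). Genes averaging 1 scaled FPKM or more over the libraries were tested (16231, of which 11341 protein-coding). Changes used a pseudocount of 1. Counts entered edgeR 4.0.16 (TMM, quasi-likelihood, R 4.3.3) with line and state as terms and Benjamini-Hochberg adjustment at 5%; DESeq2 1.42.0 and limma 3.58.1 were alternatives. The scripts were tested on simulated data, in which the changes given to edgeR were set only in genes of higher count. Genes of low count were not covered by that test. No repeat cultures are labelled, so p-values measure only the spread between these libraries.

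Pairing comes from the line names. Deviations of parent and derivative from their state means correlated at 0.46 (LnCaP), 0.73 (VCaP) and 0.59 (LAPC4) across genes, which are not independent replicates. Library totals of 8661337 to 22433655 counts set the precision, and the intervals cover counting error only.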

Additional observations from a re-analysis of the deposited data

Results flagged for a closer look

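For 5 of the 21 tested members, changes within pairs had count intervals apart in opposite directions, as for 21.4% of all genes, a like share; with 1 library per line, none of these differences between pairs was tested. Differences are of log2(scaled FPKM + 1) changes. IRF7, the factor that drives interferon alpha genes, was higher in LnCaP-abl and lower in VCaP-CR, and the 2 changes differed by 0.93. DDX58 was higher in LnCaP-abl and lower in LAPC4-CR (difference 0.88), as was HERC6 (1.33). PARP14 was higher in LnCaP-abl and VCaP-CR and lower in LAPC4-CR, with differences of 2.74 and 0.88 from the LAPC4 change. OAS3 was lower in LnCaP-abl and higher in the other derivatives, with differences of -1.26 from the VCaP change and -3.08 from the LAPC4 change.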

How the results depend on the processing

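With 1 library per line, depth limits mainly the 23 genes below the level filter. Counts were held alike within 1.5 times or where 0 stayed 0, and medians within the standard deviation of the members' medians in the 3 pairs. Of 225 counts and medians recomputed under alternatives, 146 were alike by this wide rule, and no called value changed sign. Uncalled changes did: 19 of 173 values over the pairs, in 10 members, and 3 of 345 within pairs took the other sign. No member was called over the pairs in any setting; without the replicate block the whole table also gave 0 higher and 0 lower. Over all genes the pairs gave 82 higher and 55 lower with DESeq2, 95 and 58 without the filter, and 0 to 13 higher and 1 to 20 lower leaving out 1 pair of libraries.

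All genes called between lineages, either way, numbered 449 for LnCaP, 1997 for VCaP and 1296 for LAPC4. They became 1711, 3308 and 2552 with DESeq2, 1926, 3523 and 2838 without the filter, 256, 1293 and 643 with a mean of at least 5, 198, 1308 and 857 over protein-coding genes, and 168 to 852, 366 to 3162 and 647 to 1983 leaving out 1 library.

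Members higher in the LnCaP lineage went from 2 to 8 with DESeq2, 12 without the filter and 1 to 6 leaving out 1 library, and members lower from 0 to between 0 and 1. Members higher in the VCaP lineage went from 1 to 0 with limma or without the state term, and 0 to 2 leaving out 1 library. Members lower there went from 2 to 4 without the filter, 1 with a mean of at least 5, 0 over protein-coding genes, 1 without the state term and 0 to 4 leaving out 1 library. Members higher in the LAPC4 lineage went from 0 to 1 with DESeq2 or without the filter, and 0 to 1 leaving out 1 library. Members lower there went from 2 to 6 with DESeq2 or without the filter, 1 with a mean of at least 5 and 1 to 7 leaving out 1 library. Shares of all genes by direction were not computed under these alternatives, and the genes tested differ with the filter. These counts are therefore not compared with the main test. Calls over all genes rose as well, for LnCaP from 449 to 1711 with DESeq2 and 1926 without the filter, either way.

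Members at least 2-fold higher in LnCaP-abl went from 1 to 3 with a pseudocount of 0.25, 2 with unscaled FPKM or no filter and 0 with a mean of at least 5, and lower from 2 to 1 with a pseudocount of 5 or a mean of at least 5. The median of the members, 0.41 in LnCaP-abl, became 0.040 without the filter, 0.13 with a pseudocount of 5 and 0.14 with a mean of at least 5. That of VCaP-CR went from 0.01 to -0.02 without the filter and -0.28 with a mean of at least 5, and that of LAPC4-CR from -0.23 to -0.03 without the filter and -0.08 with a pseudocount of 5. Members lower in VCaP-CR went from 2 to 1 with a pseudocount of 5, unscaled FPKM or a mean of at least 5, and those apart and higher from 3 to 5 with unscaled FPKM. Members higher in LAPC4-CR went from 2 to 1 with a pseudocount of 5 and 0 with a mean of at least 5, and lower from 1 to 4 with a pseudocount of 0.25 and 0 with a mean of at least 5. The share of all genes changed at least 2-fold was not computed under these settings, so the counts have no background here. All 44 members are counted without the filter, and fewer than the tested ones with a mean of at least 5. The cause of these shifts was not tested. The planned comparison of protein sequences was not run.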
